A study of Mus musculus with 4 samples.

Results

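The genes described here are 10 small calcium- or sugar-binding protein genes, namely the S100 genes S100a4, S100a6, S100a8, S100a9, S100a10 and S100a11, the annexin genes Anxa1 and Anxa2, and the galectin genes Lgals1 and Lgals3. They are 10 of the 32285 genes measured, and all 10 were listed in both gene expression matrices. They were chosen by measured values, their levels between cell classes and genotypes of these same libraries, so the levels and ratios below describe the libraries and are not tests. The cells were leukocytes of tumours grown under the skin from MC38, a colon carcinoma cell line of the mouse. In the KO library the recipients were Prdm1f/f CD19cre mice, in which a Cre active in B-lineage cells acts on a floxed Prdm1 gene, and in the control library they were Prdm1f/f mice with the same floxed alleles. Prdm1 encodes Blimp-1, the transcription factor needed for plasma cell formation. All recipients were C57BL/6 females aged 12 to 16 weeks, and tumours of 11 recipients per genotype were taken on day 18 and pooled. Viable B220+ and CD138+ cells were sorted from the tumour leukocytes and combined. Each genotype gave a 5' gene expression library and a library of B cell receptor V(D)J sequences.

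Each genotype has 1 library, so there is no replicate check, no test and no p-value, and library preparation cannot be told apart from genotype. Levels are given as CPM, the count of unique molecular identifiers (UMIs, each marking 1 captured RNA molecule) of a gene per 1000000 UMIs, pooled over the cells of a class. Ranges after a ratio are exact 95% intervals that cover counting error only. A ratio is called higher at 1.5 or more and called lower at 0.667 or less, provided that both sides together hold at least 50 UMIs. Counts of called genes are out of all 10, including those below this minimum, which cannot be called. The shares of all genes beside them cover only genes that reach it, so the 2 have unlike bases. Between genotypes in the Fcrl5 cluster of B cells, for example, 6 of the 10 reached it.

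S100 proteins are small calcium sensors that pair up and bind partner proteins when calcium rises. S100a10 is the exception, since it holds its active shape without calcium and forms a complex with annexin A2 at the plasma membrane. Annexins bind acidic membrane lipids in the presence of calcium, and galectins bind galactose-containing sugars on glycoproteins both inside and outside cells. In leukocytes, S100a4, S100a6, S100a10, S100a11, Anxa2, Lgals1 and Lgals3 are commonly found among genes of activated, effector and memory cells, while S100a8 and S100a9 encode the calprotectin pair of neutrophils and monocytes.

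The 6 S100 genes all lie on chromosome 3 in the GRCm38.p6 mouse assembly, in a family cluster whose neighbours had very different levels in these cells. S100a4 (ENSMUSG00000001020, positions 90603770 to 90606045) and S100a6 (90612894 to 90614414) are 6848 bases apart, and S100a8 (90669071 to 90670034) and S100a9 (90692630 to 90695721) are 22595 bases apart. S100a6 and S100a8 are separated by 54656 bases. S100a11 and S100a10 lie 2824774 bases beyond S100a9 and are 28828 bases from each other. Outside chromosome 3, Anxa1 is on chromosome 19, Anxa2 on chromosome 9, Lgals1 on chromosome 15 and Lgals3 on chromosome 14. RefSeq promoter windows of 300 bases, from 250 before to 50 after the annotated start, were matched for 8 of the 10 genes, all but S100a10 and Lgals1. The windows of 2 neighbouring pairs are printed. Levels of S100a4 and S100a6 were correlated over 9 of the cell classes (Pearson's r = 0.89), though their proportion varied widely between classes. S100a8 and S100a9 had their UMIs in few barcodes. Capitals mark TATAAA, the core of a TATA box, TTNNGCAA, the C/EBP motif, and TGANTCA, the AP-1 motif, each searched on both strands. The windows are chr3:90603520-90603819 on the plus strand for S100a4, chr3:90612644-90612943 on the plus strand for S100a6, chr3:90668821-90669120 on the plus strand for S100a8 and chr3:90695672-90695971 on the minus strand for S100a9, each written 5′ to 3′ along its gene.
S100a4: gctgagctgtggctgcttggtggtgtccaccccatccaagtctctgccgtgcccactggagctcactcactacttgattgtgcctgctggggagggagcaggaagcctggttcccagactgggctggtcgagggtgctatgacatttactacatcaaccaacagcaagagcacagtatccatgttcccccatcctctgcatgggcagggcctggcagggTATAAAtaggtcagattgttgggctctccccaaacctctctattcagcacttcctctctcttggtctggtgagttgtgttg
S100a6: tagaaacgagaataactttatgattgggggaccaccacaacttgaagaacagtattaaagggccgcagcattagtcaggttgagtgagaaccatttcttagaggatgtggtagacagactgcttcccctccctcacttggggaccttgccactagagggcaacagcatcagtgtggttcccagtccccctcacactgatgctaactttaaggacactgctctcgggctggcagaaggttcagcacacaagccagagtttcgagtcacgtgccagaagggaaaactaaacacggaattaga
S100a8: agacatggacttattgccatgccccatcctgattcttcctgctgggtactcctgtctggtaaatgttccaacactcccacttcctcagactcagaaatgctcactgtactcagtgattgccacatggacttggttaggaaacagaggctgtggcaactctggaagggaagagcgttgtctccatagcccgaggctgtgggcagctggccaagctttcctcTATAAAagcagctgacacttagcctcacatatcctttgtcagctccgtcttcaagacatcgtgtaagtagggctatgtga
S100a9: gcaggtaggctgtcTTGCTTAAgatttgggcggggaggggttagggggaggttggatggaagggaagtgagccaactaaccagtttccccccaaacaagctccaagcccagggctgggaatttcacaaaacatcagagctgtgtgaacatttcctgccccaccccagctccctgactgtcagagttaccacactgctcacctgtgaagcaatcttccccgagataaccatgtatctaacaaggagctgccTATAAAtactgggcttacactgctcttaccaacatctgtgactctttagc
Between TATAAA and the annotated start lay 25 bases in S100a4 and 24 bases in S100a8. In S100a9 TATAAA began at base 251 of the window, the annotated start itself, and TTNNGCAA was matched on the opposite strand at bases 15 to 22. No motif of the 3 was in the S100a6 or Lgals3 window. Of 27025 mouse promoter windows of the same length, 14.2% held TATAAA, 10.8% held TTNNGCAA and 7.93% held TGANTCA, which the windows of S100a11 (2 matches) and Anxa2 also held. These matches describe the letters in the windows and say nothing of which factor is bound.

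The KO library held 897 barcodes with 5463434 UMIs and the control library 816 barcodes with 6976374 UMIs, of which 863 and 804 were kept, at medians of 4022 and 5946.5 UMIs per cell. Clustering without the 10 genes and their families gave 15 clusters, 9 of them named from marker genes. The named classes are rebuilt here and may differ from those of the study. B cell-like cells formed a Fcer2a cluster (115 KO and 178 control cells) and a Fcrl5 cluster (164 KO and 48 control cells). All 9 B cell markers were detected in at least 10% of the cells of both clusters, and none of the NK, T, macrophage or neutrophil marker lists had a gene at that share in the Fcer2a cluster. The plasma cell-like cluster had 47 cells, all from the control library, against 0 from the KO library. Prdm1 itself had 16 UMIs in the KO Fcrl5 cluster against 1 in the control one, and 43 in control plasma cell-like cells. This does not check the deletion, because 5' reads may lie outside the deleted exons, which the labels do not name. The 2 libraries shared 3 cell barcodes, 2 of them among the kept cells.

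S100a6, which encodes calcyclin, was highest in macrophage or monocyte-like cells and in the Tcrg-V6 cluster of T cell-like cells. In macrophage or monocyte-like cells the S100a6 level was 4457 CPM in KO and 4990 CPM in control cells, and in the Tcrg-V6 cluster it was 4200 CPM in KO and 4406 CPM in control cells. The intervals of these 2 classes overlapped in the KO library but not in the control library. The unnamed Mt1/Gpnmb cluster came next, at 2786 CPM in KO and 3003 CPM in control. The next 3 classes had overlapping intervals in KO, at 1904 CPM in the unnamed Gzmd/Gzmc cluster, 1750 CPM in the unnamed Ace/Ear2 cluster and 1723 CPM in the Cd8a cluster of T cell-like cells. In control their order was different, with 2626 CPM in the Cd8a cluster, 2402 CPM in the Ace/Ear2 cluster and, below both, 2012 CPM in the Gzmd/Gzmc cluster. NK cell-like cells had 1309 CPM in KO and 879 CPM in control, and plasmacytoid dendritic cell-like cells 1264 and 764 CPM, with overlapping intervals between these 2 classes in both libraries. The Fcrl5 cluster of B cells came below them at 772 CPM in KO and 507 CPM in control. Lowest among the named classes were mast cell or basophil-like cells at 68.7 CPM in KO and 44.9 CPM in control, and the Fcer2a cluster at 43.4 CPM in KO and 29.8 CPM in control, whose intervals overlapped.

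S100a4, which encodes metastasin and binds non-muscle myosin, was highest in 3 classes. The Tcrg-V6 cluster had 1726 CPM in KO and 1559 CPM in control, macrophage or monocyte-like cells 1538 and 1622 CPM, and the unnamed Ace/Ear2 cluster 1603 and 1701 CPM, all with overlapping intervals. The Cd8a cluster of T cell-like cells followed at 740 CPM in KO and 1346 CPM in control. S100a4 was low in some classes where S100a6 was not. In NK cell-like cells the S100a4 level was 77.8 CPM in KO and 38.3 CPM in control, and in the Fcrl5 cluster it was 21.4 CPM in KO and 17.6 CPM in control. Low S100a4 did not hold for all cells with NK cell markers. The unnamed Gzmd/Gzmc cluster, with all 8 NK cell markers in 61.1% to 99.0% of its cells, had 379 CPM in KO and 382 CPM in control. Per S100a6 UMI, S100a4 had 0.429 UMIs in KO and 0.513 in control Cd8a cells, 0.0594 and 0.0436 in NK cell-like cells, and 0.0278 and 0.0347 in the Fcrl5 cluster. Mast cell or basophil-like cells had no S100a4 UMI in either library, which allows a level of up to 22.9 CPM in KO and 26.9 CPM in control.

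**Figure D1:**
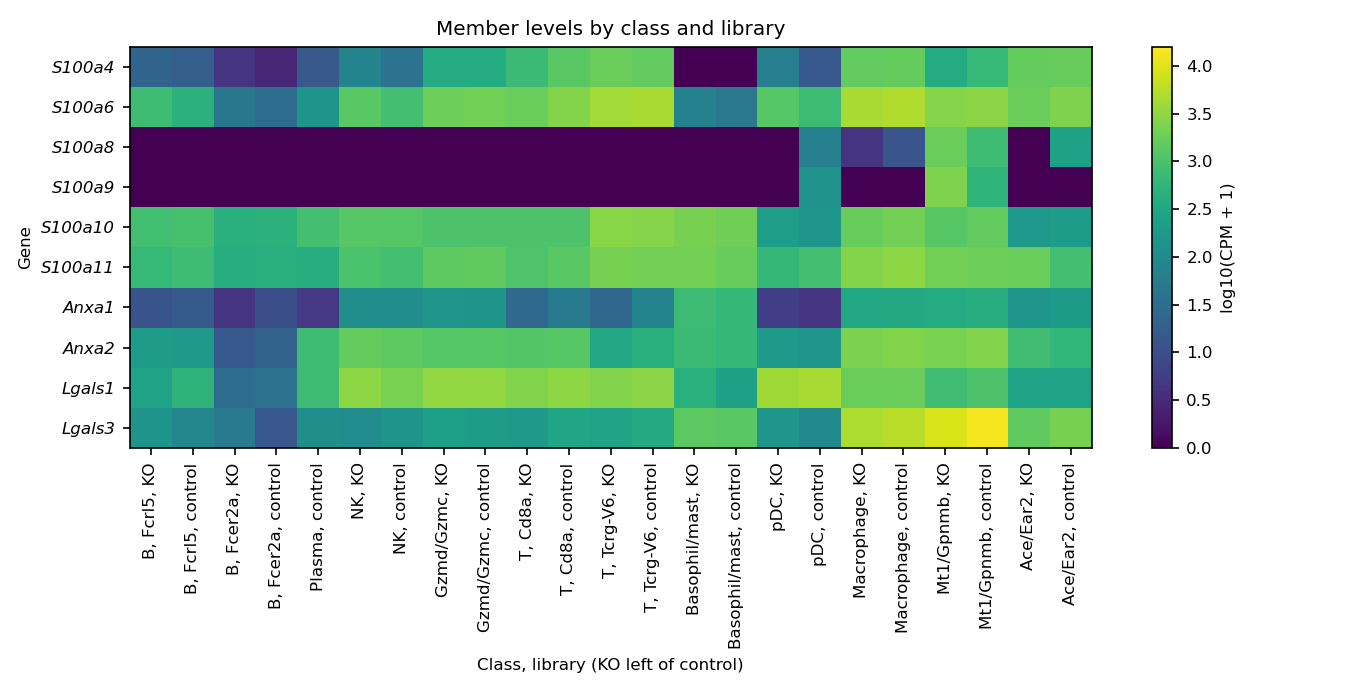
Levels of the 10 genes as log10(CPM + 1) in each cell class, with the KO library to the left of the control library within each class. S100a8 and S100a9 are at 0 in every B, NK, T and basophil class shown, S100a6 is high in macrophages and T cells and near 40 CPM in the Fcer2a cluster, and Lgals1 is highest in plasmacytoid dendritic cell-like cells.

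S100a10, the annexin A2 partner, and S100a11, which binds annexin A1, had at least 161 CPM in every named class, the Fcer2a cluster of B cells included. S100a10 was highest in the Tcrg-V6 cluster, at 2816 CPM in KO and 2737 CPM in control, followed by mast cell or basophil-like cells at 2200 and 1965 CPM and macrophage or monocyte-like cells at 1696 and 2109 CPM, whose intervals overlapped in the control library. NK cell-like cells had 1284 CPM in KO and 1242 CPM in control, and the Fcrl5 cluster 861 and 961 CPM. The Fcer2a cluster still had 471 CPM in KO and 506 CPM in control, above plasmacytoid dendritic cell-like cells at 224 and 161 CPM. S100a11 was highest in macrophage or monocyte-like cells, at 2599 CPM in KO and 3073 CPM in control. It had 407 CPM in KO and 441 CPM in control cells of the Fcer2a cluster and 420 CPM in control plasma cell-like cells.

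S100a8 and S100a9 were confined to few barcodes. In the kept cells S100a8 had 148 UMIs in the KO library and 375 in the control library, and S100a9 had 209 and 258. No UMI of either gene was found in B cell-like, plasma cell-like, NK cell-like, T cell-like, Gzmd/Gzmc or mast cell or basophil-like cells of either library. Only 6 of 863 KO cells and 20 of 804 control cells had a UMI of the pair. The barcodes with at least 5 UMIs of the pair numbered 3 in KO and 7 in control, and they held 97.3% and 96.0% of the S100a8 UMIs and 98.6% and 99.6% of the S100a9 UMIs.

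Among these barcodes the 2 genes were not always together. The largest KO barcode had 111 S100a8 and 155 S100a9 UMIs among 1408 UMIs in all, and 7 of the 8 neutrophil markers were detected in it. The largest control barcode had 199 S100a8 and 112 S100a9 UMIs and 6 neutrophil markers. By contrast, 1 KO barcode had 14 S100a8 and 0 S100a9 UMIs, and 1 control barcode of the Ace/Ear2 cluster had 40 and 0. The plasmacytoid dendritic cell-like level of the control library, 20 S100a8 and 44 S100a9 UMIs, came from a single barcode of 9765 UMIs with 7 neutrophil markers. In the Mt1/Gpnmb cluster, 18 KO and 71 control cells, the KO over control ratio of 4.41 for S100a9 and 2.17 for S100a8 rests on these few barcodes. Neutrophils were not a class of their own, and the share of neutrophils in the sort was not measured here.

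**Figure D2:**
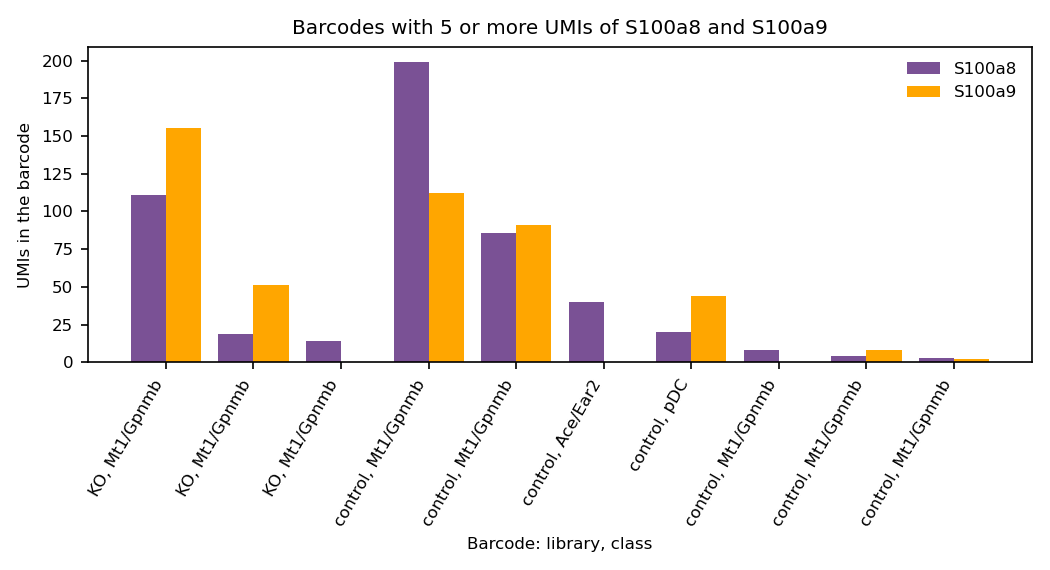
UMIs of S100a8 and S100a9 in the 10 barcodes that held at least 5 UMIs of the 2 genes together, KO barcodes first. The 2 KO barcodes with both genes had 111 and 19 S100a8 UMIs, and the barcode with 40 S100a8 UMIs had no S100a9 UMI.

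Anxa2 encodes annexin A2, which links membranes to actin and binds S100a10. Its level was highest in macrophage or monocyte-like cells (2332 CPM in KO, 2557 CPM in control) and the Mt1/Gpnmb cluster (2255 and 2555 CPM), with overlapping intervals. NK cell-like cells had 1594 CPM in KO and 1425 CPM in control, the Gzmd/Gzmc cluster 1258 and 1275 CPM, and the Cd8a cluster 1192 and 1287 CPM. Levels were much lower in B cells, with 204 CPM in KO and 182 CPM in control for the Fcrl5 cluster, and 13.4 and 20.5 CPM for the Fcer2a cluster.

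RNA counts of Anxa2 and S100a10, whose proteins form a complex, were not in a fixed proportion across classes. Protein was not measured. Anxa2 had 1.24 UMIs per S100a10 UMI in KO and 1.15 in control NK cell-like cells, and 1.13 and 1.22 in the Cd8a cluster. In the Tcrg-V6 cluster, where S100a10 was highest, there were 0.113 Anxa2 UMIs per S100a10 UMI in KO and 0.165 in control. The Fcrl5 cluster had 0.237 (0.199 to 0.282) in KO and 0.189 (0.142 to 0.249) in control. The Fcer2a cluster had 0.0284 (0.00762 to 0.0743) in KO and 0.0404 (0.0200 to 0.0735) in control, while control plasma cell-like cells had 0.905 (0.821 to 0.998). Within B-lineage cells the Anxa2 count per S100a10 count was therefore lowest in the Fcer2a cluster, intermediate in the Fcrl5 cluster and highest in plasma cell-like cells, with intervals that did not overlap between the 3.

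**Figure D3:**
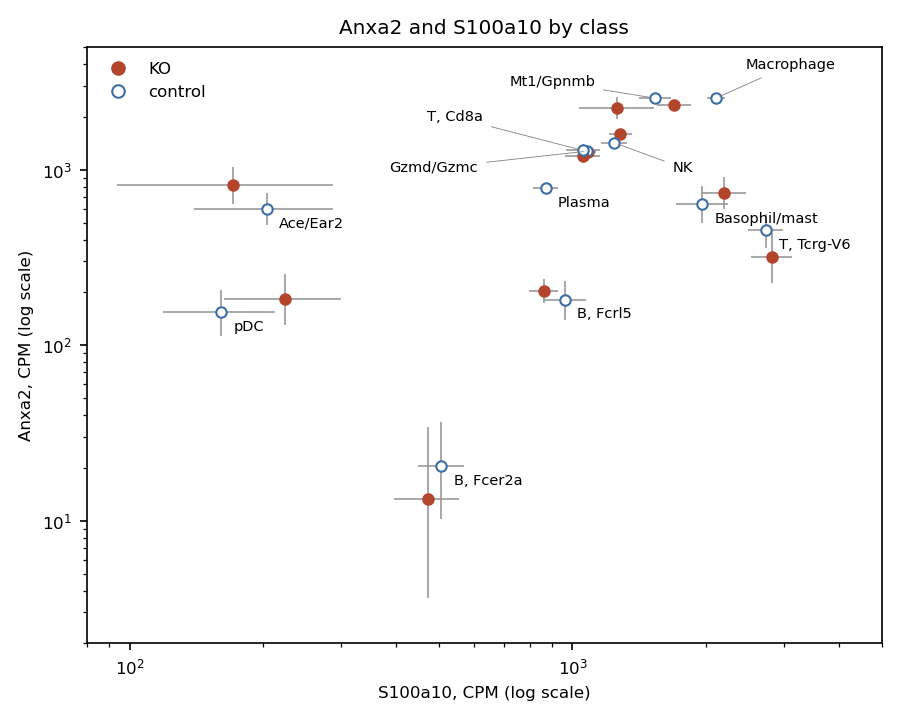
Level of Anxa2 against level of S100a10 in CPM on log axes, with filled points for KO and open points for control classes. The Fcer2a cluster sits at about 500 CPM of S100a10 with under 25 CPM of Anxa2, and the Tcrg-V6 cluster has the highest S100a10 with 318 and 450 CPM of Anxa2.

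Anxa1 encodes annexin A1, a mediator that limits inflammation. It was highest in mast cell or basophil-like cells, at 756 CPM in KO and 619 CPM in control, then in the Mt1/Gpnmb cluster at 390 and 416 CPM and in macrophage or monocyte-like cells at 329 and 341 CPM. NK cell-like cells had 119 CPM in KO and 113 CPM in control. B cells had almost none, with 11.3 CPM from 9 UMIs in KO and 14.6 CPM from 5 UMIs in control for the Fcrl5 cluster. Mast cell or basophil-like cells thus combined the highest Anxa1 level with no S100a4 UMI.

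The 2 galectin genes were highest in different classes. Lgals1 encodes galectin-1, which can induce death of activated T cells, and its level was highest in plasmacytoid dendritic cell-like cells, at 3970 CPM in KO and 4524 CPM in control. The Gzmd/Gzmc cluster followed at 3346 CPM in KO and 3330 CPM in control. NK cell-like cells had 3112 CPM in KO and 2255 CPM in control, and the Cd8a cluster 2541 and 3046 CPM, so that these 2 classes stood in a different order in each library. Lgals3 encodes galectin-3, a marker of macrophages, and reached 9174 CPM in KO and 13941 CPM in control cells of the Mt1/Gpnmb cluster, 4770 and 5532 CPM in macrophage or monocyte-like cells, and 1406 and 1319 CPM in mast cell or basophil-like cells. The unnamed Ace/Ear2 cluster had 1468 CPM in KO and 2179 CPM in control. In NK cell-like cells Lgals3 was at 110 CPM in KO and 148 CPM in control. Per Lgals1 UMI there were 11.26 Lgals3 UMIs in KO and 12.96 in control cells of the Mt1/Gpnmb cluster, against 0.0355 and 0.0659 in NK cell-like cells.

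Free RNA from broken cells adds UMIs to every droplet, so each level was set beside an estimate of it. For each other lineage, its reporter genes (such as Cd3d, Cd3e and Cd3g for T cells) were counted in a class, and their level was divided by their level in the whole library. The largest of these shares, times a member's level in the whole library, gave an estimated free-RNA level, and a member was counted as cell-borne where the lower bound of its interval was above it. In Fcer2a-negative B cells, those with no Fcer2a UMI, the largest share was 5.56% in KO and 5.14% in control. There, 5 of the 10 genes were above the estimate in both libraries, namely S100a6, S100a10, S100a11, Anxa2 and Lgals1. S100a6, for example, had 659 CPM in KO and 313 CPM in control, against estimates of 92.7 and 94.5 CPM. The same 5 were above it in the Fcrl5 cluster. Lgals3 in the Fcrl5 cluster was above the estimate only in KO, at 146 CPM against 39.5 CPM, while control had 85.0 CPM against an estimate of 117 CPM. S100a4 and Anxa1 were not above it, at 21.4 CPM against 23.7 CPM for S100a4 in KO and 17.6 CPM against 36.9 CPM in control. In both B cell groups the KO estimates rest on 2 neutrophil reporter UMIs in 1 cell. The control estimates rest on 10 plasmacytoid dendritic cell reporter UMIs in 3 cells. The NK cell share in the Fcrl5 cluster was 0.885% in KO, from 38 UMIs, and 0 in control. A gene that was not above the estimate is therefore not shown to be free RNA.

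In the Fcer2a cluster S100a10 and S100a11 were above the free-RNA estimate in both libraries, and the other 8 genes in neither. S100a6 there had 43.4 CPM in KO and 29.8 CPM in control, against estimates of 142 and 69.6 CPM. These estimates rest on 13 T cell reporter UMIs in KO, 11 of them in 1 cell, and on 1 neutrophil reporter UMI in control, and the NK cell share alone would give 10.3 and 2.03 CPM. In Fcer2a-positive B cells of the KO library the largest share was 11.6%, from 12 T cell reporter UMIs of which 11 were in 1 cell, so the S100a6 estimate there, 194 CPM, stood above the level of 188 CPM. In control Fcer2a-positive cells, where the largest share was 0.599%, the S100a6 level of 101 CPM was above its estimate of 11.0 CPM, as were those of Anxa1, Anxa2 and Lgals1. That share is 1 plasmacytoid dendritic cell reporter UMI, with every other lineage at 0. With 3 UMIs it would be 1.80%, and 3 mast cell or basophil reporter UMIs would give 21.1%. The estimates of the 2 libraries are therefore not comparable for Fcer2a-positive cells. NK cell-like cells had 6 genes above the estimate in both libraries (S100a6, S100a10, S100a11, Anxa1, Anxa2 and Lgals1), and the Tcrg-V6 cluster and macrophage or monocyte-like cells 8 each, all but S100a8 and S100a9. In mast cell or basophil-like cells 6 genes were above it, and S100a6 was not, at 68.7 CPM against 65.9 CPM in KO and 44.9 CPM against 35.4 CPM in control. In control plasma cell-like cells S100a10, S100a11, Anxa2 and Lgals1 were above it, while S100a6 at 148 CPM was below the estimate of 261 CPM. That estimate rests on 66 T cell reporter UMIs in 4 of the 47 cells, 31 of them in 1 cell, and the NK cell share, from 84 UMIs in 29 cells, would give 46.03 CPM. For the Cd8a cluster the estimate is of no use, because the neutrophil reporter Il1r2 had 17 UMIs in KO and 62 in control cells of that cluster, and none of the 10 genes was above it in both libraries.

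Within B cells, S100a6 was higher in Fcer2a-negative than in Fcer2a-positive cells of both genotypes. Fcer2a encodes CD23, an IgE receptor of follicular B cells. S100a6 had 659 CPM in 213 Fcer2a-negative and 188 CPM in 66 Fcer2a-positive KO cells, a ratio of 3.51 (2.53 to 5.01). In the control library it had 313 CPM in 100 Fcer2a-negative and 101 CPM in 126 Fcer2a-positive cells, a ratio of 3.09 (2.18 to 4.49). In KO cells Anxa2 (2.47), Lgals1 (1.59), S100a10 (1.59) and Lgals3 (1.52, 0.910 to 2.71) were also called higher, so that 5 of the 10 genes were called, beside 26.8% of the genes with at least 50 UMIs. In control cells Anxa2 (135 against 22.2 CPM, 6.10), Lgals1 (382 against 64.1 CPM, 5.97) and S100a10 (814 against 530 CPM, 1.53) were called with S100a6, 4 of the 10, beside 21.6% of all such genes. S100a11 had a ratio of 1.39 in KO and 1.36 in control and was not called, and S100a4, Anxa1, S100a8 and S100a9 had too few UMIs in both libraries, as had Lgals3 in the control library. With each cell thinned to 1500 UMIs, and the split made on the thinned counts, the counts were 2 in KO and 1 in control. Fewer genes may reach 50 UMIs there. Where positive cells needed 2 Fcer2a UMIs, the KO count was 2, and Lgals1 and Lgals3 turned to ratios of 0.953 and 0.904. Since these contrasts helped to choose the genes, nothing is read from the counts.

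The Fcer2a-positive levels of S100a6 rested on single cells. In KO, 31 of the 38 UMIs were in 1 Fcer2a-positive cell, which had no Cd3 UMI, and in control 22 of 41 were in 1 cell. Without the top cell of each group, the Fcer2a-negative over Fcer2a-positive ratio of S100a6 was 15.9 in KO and 4.73 in control. The split by Fcer2a UMI also depends on depth, because only 52.2% of KO and 66.9% of control cells of the Fcer2a cluster had a Fcer2a UMI, against 3.66% and 14.6% of the Fcrl5 cluster. With each cell thinned to 1500 UMIs, S100a6 was detected in 76 of 215 Fcer2a-negative (35.3%) and 4 of 54 Fcer2a-positive (7.41%) KO cells. These groups were split on the thinned Fcer2a counts and are not the groups above. Cells that lost their Fcer2a UMIs count as negative, and cells under 1500 UMIs were left out. In control cells the thinned counts were 9 of 135 (6.67%) and 1 of 87 (1.15%).

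Split by cluster instead, the difference was larger. S100a6 had 772 CPM in the Fcrl5 cluster and 43.4 CPM in the Fcer2a cluster of KO cells, a ratio of 17.8 (10.3 to 33.6), and 507 and 29.8 CPM in those of control cells, 17.0 (10.2 to 30.5). Fcrl5 encodes an Fc receptor-like protein of innate-like and memory B cells. Anxa2 had ratios of 15.3 (5.86 to 56.8) in KO and 8.88 in control, and Lgals1 8.69 in KO and 13.9 in control. S100a10 was 1.83-fold higher in KO and 1.90-fold higher in control, S100a11 was 1.60-fold and 1.77-fold higher, and Lgals3 was 2.92-fold higher in KO. In KO cells 6 of the 10 genes were called higher, beside 28.3% of all genes with enough UMIs, and in control cells 5 were, beside 31.8%. Fcrl5-cluster cells without a Fcer2a UMI had 767 CPM of S100a6 in KO (158 cells) and 480 CPM in control (41 cells). Those with a Fcer2a UMI were too few to compare, since 31 of the 34 S100a6 UMIs of 6 KO cells and 22 of the 33 of 7 control cells were in 1 cell each. A ratio between clusters is a description, since the clusters were drawn from the same cells, although the 10 genes were left out of the clustering.

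**Figure D4:**
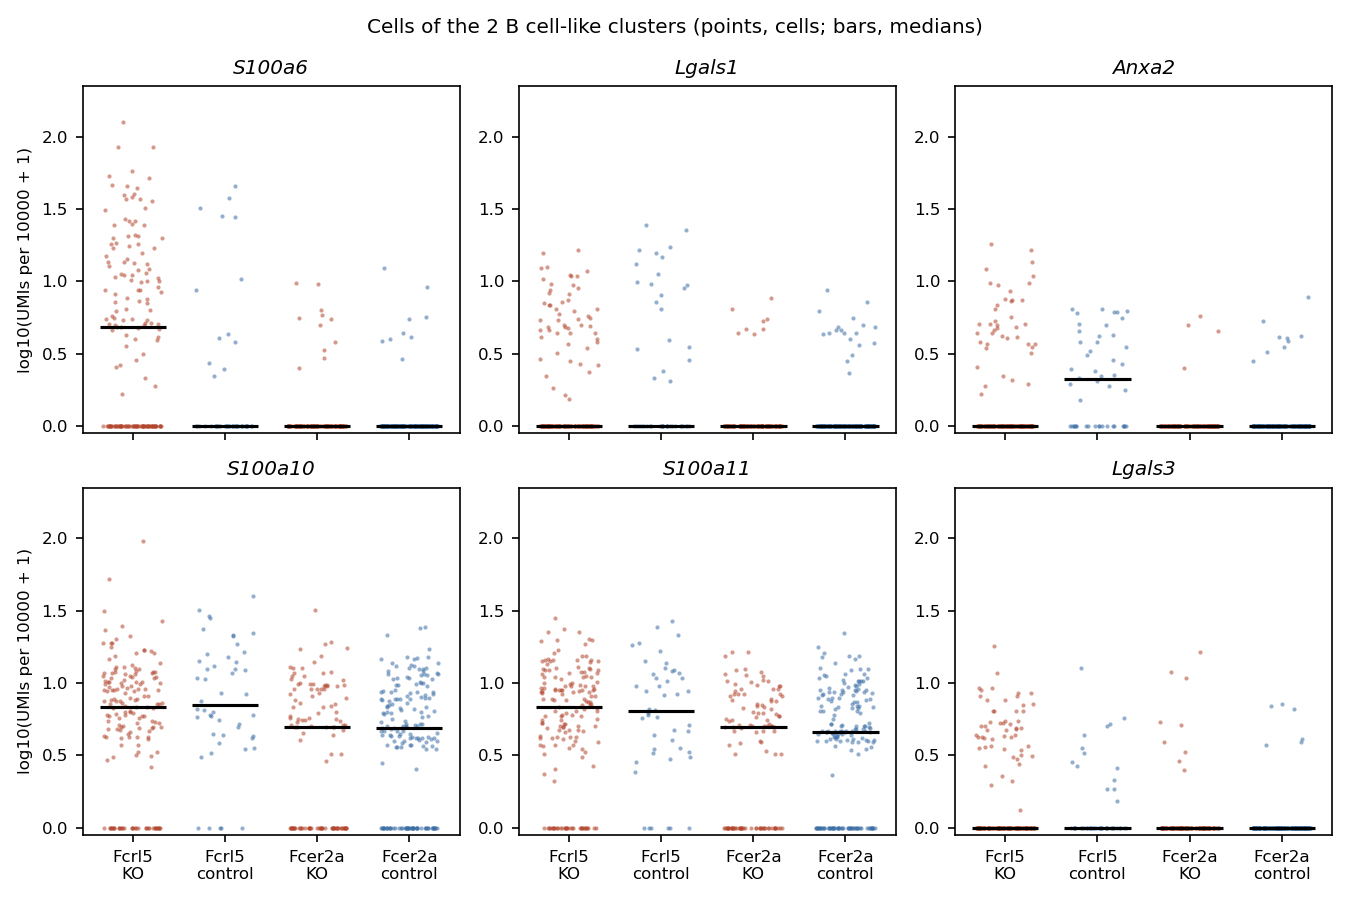
UMIs per 10000 of each cell, as log10(value + 1), for 6 of the genes in B cells, with the Fcrl5 cluster to the left of the Fcer2a cluster and KO to the left of control in each. Bars are medians, and the median of S100a6 is above 0 only in the KO Fcrl5 cluster.

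Between genotypes, S100a6 and Lgals3 were called higher and Lgals1 was called lower in Fcer2a-negative B cells of the KO library. S100a6 had 587 UMIs (659 CPM) in KO and 148 UMIs (313 CPM) in control, a ratio of 2.11 (1.76 to 2.54). The mix of clusters differed, since 158 of 213 KO but 41 of 100 control Fcer2a-negative cells were of the Fcrl5 cluster, where S100a6 was higher, and within that cluster the ratio was 1.52. Lgals3 had 128 CPM in KO and 63.4 CPM in control, a ratio of 2.02 (1.34 to 3.13). The control level was below its free-RNA estimate of 84.5 CPM, which rests on 10 reporter UMIs in 3 cells. Lgals1 had 212 CPM in KO and 382 CPM in control, a ratio of 0.555 (0.450 to 0.684). These were 3 of the 10 genes, beside 12.4% of all genes with at least 50 UMIs in this class, a share that is given as background only because the rule that chose the genes used the same contrast. S100a10 (810 CPM in KO, 814 CPM in control), S100a11 (618 and 653 CPM) and Anxa2 (171 and 135 CPM) were not called. A KO barcode of 46691 UMIs without any B cell marker UMI or heavy chain had clustered with the Fcrl5 cells and was set aside with 9 others of few own-marker UMIs. With these 10 barcodes kept, the S100a6 ratio was 2.78 and that of Lgals1 turned to 1.04.

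In Fcer2a-positive B cells S100a6 had 188 CPM in KO and 101 CPM in control, a ratio of 1.86 (1.16 to 2.96), and Lgals1 had 134 and 64.1 CPM, a ratio of 2.08 (1.17 to 3.72). These 2 of the 10 genes were called, beside 13.8% of all genes. Both calls rested on 1 cell per library and ended when the top cell of each was left out. The Fcer2a cluster had no called gene, 0 of the 10, beside 10.4% of all genes, with only S100a10 (ratio 0.930) and S100a11 (0.924) above the UMI minimum. S100a6 had 13 UMIs there in KO and 16 in control.

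In the Fcrl5 cluster S100a6 had 772 CPM in KO and 507 CPM in control, a ratio of 1.52 (1.28 to 1.81), Lgals3 146 and 85.0 CPM, 1.72 (1.14 to 2.68), and Lgals1 261 and 545 CPM, 0.479 (0.391 to 0.587). They were 3 of the 10 genes called, beside 15.5% of all genes. The UMIs were spread over more KO cells. S100a6 was detected in 97 of 164 KO cells (59.1%) and 13 of 48 control cells (27.1%), although KO cells were shallower, at a median of 3068 UMIs against 5875.5. After thinning to 1500 UMIs the shares were 47.2% in KO and 14.6% in control, beside 4.55% in KO and 1.72% in control cells of the Fcer2a cluster (median depths 2466 and 2939 UMIs). Mast cell or basophil-like cells, whose S100a6 level lay near the free-RNA estimate, had thinned shares of 7.14% in KO and 9.68% in control, at median depths of 2992 and 3295 UMIs. The 5 highest cells held 34.0% of the S100a6 UMIs in KO and 85.0% in control, where the 3 highest cells had 45, 39 and 32 of the 173 UMIs. Per cell the means were 3.73 UMIs in KO and 3.60 UMIs in control. Anxa2 showed the reverse in the unthinned shares, with 25.6% of KO and 60.4% of control cells, and 12.6% and 18.8% after thinning, beside thinned shares of 3.64% and 2.30% in the Fcer2a cluster.

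Heavy-chain class was associated with these levels within the KO Fcrl5 cluster. S100a6 had 445 CPM in 31 IgA or IgG cells and 1012 CPM in 126 IgM or IgD cells of the KO library, a ratio of 0.440 (0.362 to 0.532). The IgA or IgG cells were deeper, at a median of 9008 UMIs against 2966, and per cell they held more S100a6, at 4.65 UMIs against 3.58. Anxa2 went the other way, with 346 CPM in IgA or IgG and 98.8 CPM in IgM or IgD cells, a ratio of 3.51 (2.45 to 5.09), and S100a10 had 1077 and 721 CPM. In the control library, with 6 IgA or IgG and 23 IgM or IgD cells, S100a6 had 604 and 672 CPM and Anxa2 201 and 192 CPM. Among IgM or IgD cells only, the KO over control ratio was 1.51 (1.22 to 1.87) for S100a6, 1.90 (1.08 to 3.55) for Lgals3, 0.331 (0.253 to 0.433) for Lgals1, 0.554 for S100a10 and 0.515 (0.319 to 0.839) for Anxa2. Among IgA or IgG cells S100a6 had a ratio of 0.737 (0.528 to 1.04) and S100a10 one of 1.71. The genotypes differed in how often a heavy chain was read, in 157 of 164 KO and 31 of 48 control cells of the Fcrl5 cluster.

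Plasma cell-like cells, present only in the control library, had 870 CPM of S100a10, 787 CPM of Anxa2, 752 CPM of Lgals1 and 420 CPM of S100a11. S100a6 was at 148 CPM, with a UMI in 24 of 47 cells at a median of 20862 UMIs per cell. In CPM it stood between the control Fcrl5 cluster (507 CPM) and the Fcer2a cluster (29.8 CPM). As UMIs, S100a6 had 148 in these 47 cells, 173 in 48 control cells of the Fcrl5 cluster and 16 in 178 of the Fcer2a cluster. Median depth in the control Fcrl5 cluster was 5875.5 UMIs, and the part of depth in the CPM difference was not tested. Lgals3 had 116 CPM, S100a4 14.04 CPM and Anxa1 4.01 CPM, and S100a8 and S100a9 were at 0. No KO level could be set beside these.

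Outside the B lineage, where the Cre is not expected to act, ratios between the libraries also passed the threshold. In NK cell-like cells (146 KO, 94 control) S100a4 had 62 UMIs in KO and 25 in control, 77.8 and 38.3 CPM, a ratio of 2.03 (1.26 to 3.38). It was the 1 gene of 10 called, beside 7.68% of all genes, and S100a6 had a ratio of 1.49 (1.34 to 1.65) and Lgals1 one of 1.38. The S100a4 level was above its free-RNA estimate in KO (47.3 CPM) but not in control NK cell-like cells (145 CPM). These estimates rest on 4 and 9 neutrophil reporter UMIs, so no difference between the libraries is read from them. The S100a4 call ended with thinning to 1500 UMIs and when the gene families were kept in the clustering, with a ratio of 1.04. In the Cd8a cluster (49 KO, 39 control) 3 genes were called lower in KO, beside 15.0% of all genes called. They were S100a4 with 740 CPM in KO and 1346 CPM in control (0.550, 0.480 to 0.629), S100a6 with 1723 and 2626 CPM (0.656, 0.599 to 0.718) and Lgals3 with 178 and 289 CPM (0.615, 0.461 to 0.818). S100a10 in the same cells had 1056 CPM in KO and 1057 CPM in control. KO cells of this cluster were shallower, at a median of 6906 UMIs against 10133, and the part of depth in these ratios was not tested.

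Plasmacytoid dendritic cell-like cells (38 KO, 39 control) had S100a6 at 1264 CPM in KO and 764 CPM in control, a ratio of 1.65 (1.38 to 1.98), and Lgals3 at 164 and 102 CPM, 1.61 (0.958 to 2.73). These were 2 of the 10 genes, beside 10.8% of all genes. Neutrophil reporters stood there at 24.6% of their library level in KO and 114% in control, so that of the 10 genes only Lgals1 was above the free-RNA estimate in both libraries. These shares rest on 2 reporter UMIs in KO and 17 in control, where Il1r2 had 13 UMIs in 3 cells. The NK cell shares were 0.735% and 0.390%. For this class, too, the estimate does not separate free from cell-borne RNA. In mast cell or basophil-like cells (45 KO, 33 control) Lgals1 had 489 CPM in KO and 242 CPM in control, a ratio of 2.02 (1.27 to 3.29), 1 of the 10 genes beside 11.3% of all genes. The Mt1/Gpnmb cluster had 4 genes called, beside 24.9% of all genes, with S100a8 and S100a9 higher as given above, S100a4 lower at 378 CPM in KO and 657 CPM in control (0.575, 0.385 to 0.833) and Lgals3 lower at 9174 and 13941 CPM (0.658, 0.610 to 0.710).

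In the Ace/Ear2 cluster (14 KO, 24 control) S100a11 had 1738 CPM in KO and 866 CPM in control, a ratio of 2.01 (1.57 to 2.56), the 1 gene of 10 called beside 17.5% of all genes.

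The Gzmd/Gzmc cluster, which holds the most UMIs, had 0 of the 10 genes called, beside 7.48% of all genes, with ratios from 0.946 to 1.10 over the 8 genes above the minimum. Since this cluster also carried the NK cell markers, the S100a4 call of the NK cell-like class did not extend to it. The Tcrg-V6 cluster (35 cells in each library) also had 0 called beside 11.4% of all genes, and S100a6 stood at 4200 CPM in KO and 4406 CPM in control. Macrophage or monocyte-like cells (44 KO, 93 control) had 0 called beside 13.0%, with S100a6 at 4457 and 4990 CPM and Anxa2 at 2332 and 2557 CPM. The direction of S100a6 thus differed between classes of the same 2 libraries, being called higher in the KO Fcrl5 cluster and plasmacytoid dendritic cell-like cells and called lower in the KO Cd8a cluster. No class difference was tested.

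**Figure D5:**
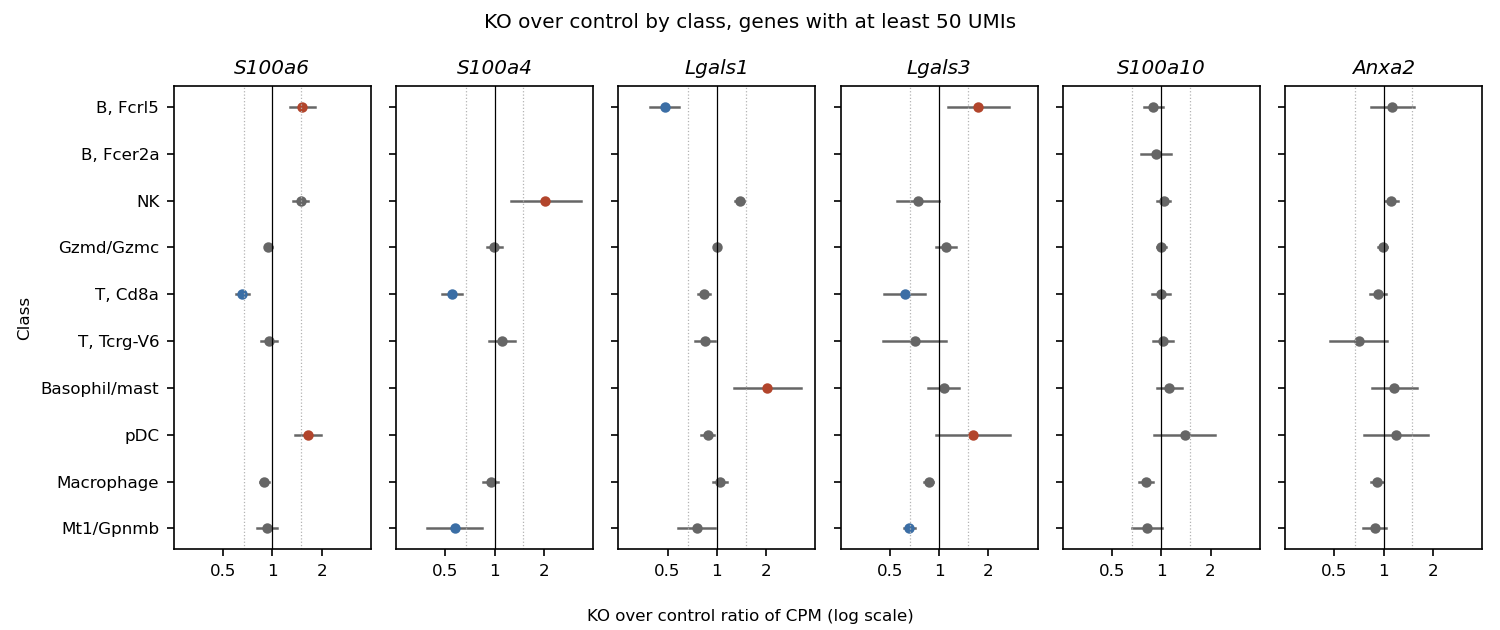
KO over control ratio of 6 of the genes in each cell class on a log axis, with exact 95% counting intervals and dotted lines at 1.5 and 0.667. S100a6 is 1.52 in the Fcrl5 cluster and 0.656 in the Cd8a cluster, and Lgals1 is 0.479 in the Fcrl5 cluster.

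Across 18 points, 9 classes in each of 2 libraries, Pearson's r of log2(CPM + 10) describes which genes had like patterns. Points of a library share its depth and its free RNA. Each class had at least 20 cells in both libraries, which left out the Mt1/Gpnmb, Ace/Ear2 and plasma cell-like clusters. S100a4 and S100a6 had r = 0.89, and S100a6 and Lgals1 0.83. S100a8 and S100a9 had 0.92, and S100a6 and S100a8 0.13. Among these points S100a9 was above 0 only in control plasmacytoid dendritic cell-like cells, at 144 CPM. There 1 barcode held 20 S100a8 and 44 S100a9 UMIs, so these 2 values of r rest mainly on that barcode. S100a11 was most like Lgals3 among the members, at 0.86. Among 6201 other genes the nearest to S100a6 was Ap1s1 (0.95), followed by Cox6a1 and Psmb5 (both 0.90), and the nearest to S100a4 was Ap2s1 (0.92). Anxa2 was nearest to Ldha (0.93), Lgals3 to Slc16a3 and Plin2 (both 0.92), Lgals1 to Spcs1 (0.93), S100a11 to Prdx6 (0.94), S100a10 to Socs1 (0.91) and Anxa1 to Ndrg1 (0.93). For S100a8 and S100a9, whose values here rest mainly on that barcode, the nearest were Dpm2 and Paip1 at 0.80 each.

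Other genes of the families were counted from lists. Of 11 other S100 genes, 2 had at least 50 UMIs over the libraries and 6 had none. S100a13, with 2927 UMIs the most abundant, was 1.95-fold (1.17 to 3.44) higher in the Fcrl5 than in the Fcer2a cluster of KO cells and had a ratio of 1.25 in control cells. Of 10 other annexin genes, 6 had at least 50 UMIs, and between the B cell clusters 1 of 4 measured was called higher in KO (Anxa7, 1.68) and 1 of 3 in control (Anxa6, 240 against 149 CPM, 1.61), beside 28.3% and 31.8% of all genes. Between genotypes Anxa6 was called lower in the KO Fcrl5 cluster, at 135 CPM in KO and 240 CPM in control, a ratio of 0.562 (0.417 to 0.758), with 0 of 4 called higher, beside 15.5% of all genes. Of 7 other galectin genes 3 had at least 50 UMIs, and Lgals9, the most abundant with 2880, had Fcrl5 over Fcer2a cluster ratios of 0.968 in KO and 0.973 in control.

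Of 12 receptors and partners of these proteins, 10 had at least 50 UMIs. Itgb1, the integrin beta-1 chain to which galectins bind, was 9.63-fold higher in the Fcrl5 than in the Fcer2a cluster in KO (153 against 6 UMIs) and 12.5-fold in control (87 against 11 UMIs). Ahnak, a large scaffold bound by the annexin A2 and S100a10 complex, was 4.34-fold higher in KO and 2.87-fold higher in control. In all, 3 of 5 measured partners were called higher in KO, beside 28.3% of all genes called in either direction, and in control 2 of 4 were called higher and 1 lower (Plaur, 0.621), beside 31.8%. Between genotypes Ahnak was called lower in the KO Fcrl5 cluster, at 87.0 CPM in KO and 149 CPM in control, a ratio of 0.582 (0.40 to 0.853), while 0 of 6 partners were called higher, beside 15.5% of all genes called.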

How the data were processed

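The KO and the control pool each gave 1 gene expression library and 1 library of B cell receptors. Per the submitters' processing notes, the authors used Cell Ranger 6.0.0 and the GRCm38/mm10 build; the deposited filtered matrices hold raw UMI counts per gene and barcode. Barcodes with under 200 genes or over 10% mitochondrial counts, Scrublet doublets (5 KO, 1 control) and barcodes with 2 or more heavy chains (6 KO, 0 control) were removed. Cells were scaled to 10000 counts and clustered in Scanpy 1.11.5 (Python 3.11.15; 2000 variable genes without the 10 genes and their families, 30 components, 15 neighbours, Leiden resolution 1). A cluster was named where at least 3 markers of a list were in at least 10% of its cells and its leading 25 genes fitted; this naming rule, and the rule setting aside 10 barcodes with under 3 UMIs of their cluster's markers, were chosen after the clusters were seen. Counts were summed per class and library. Intervals are exact Poisson and conditional binomial ones from SciPy 1.17.1, at 95%, and cover counting error only. A gene at 0 was given a floor of 3 counts. The scripts were tested on simulated data. All 10 genes are named in every class; likeness used genes with at least 200 UMIs and the 3 nearest per gene. Genes, lists and alternatives were chosen with earlier results of these data known. Heavy chains outside B and plasma cells were found in 8 of 572 KO and 2 of 521 control cells.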

Additional observations from a re-analysis of the deposited data

Results flagged for a closer look

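Several genes differed between the KO and control libraries in one direction in some cell classes and in the other direction, or not at all, in others. With 1 library per genotype none of these differences between classes was tested. S100a4 had a KO over control ratio of 2.03 in NK cell-like cells, against 0.550 in the Cd8a cluster and 0.575 in the Mt1/Gpnmb cluster. S100a6 had a ratio of 1.52 in the Fcrl5 cluster of B cells and 1.65 in plasmacytoid dendritic cell-like cells, against 0.656 in the Cd8a cluster. Lgals1 had a ratio of 2.02 in mast cell or basophil-like cells and 0.479 in the Fcrl5 cluster. Lgals3 had a ratio of 1.72 in the Fcrl5 cluster, 0.615 in the Cd8a cluster and 0.658 in the Mt1/Gpnmb cluster. Median depth was lower in the KO cells of each of these classes, and outside B and NK cells, where cells were thinned, its part in the ratios was not tested.

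In data outside the classes, 1 KO barcode held 319 S100a6 UMIs and 180 Lgals1 UMIs among 46691, with no UMI of a B cell marker and no heavy chain. Its cell type was not determined.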

How the results depend on the processing

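With 1 library per genotype, replicate libraries could not be left out in turn. No paired analysis was possible because there was 1 library per genotype. Keeping barcodes with few own-marker UMIs, adding the Ifit3/Pkib cluster to the B cells and using IgM or IgD cells only were alternatives chosen after seeing the data. Over all alternatives, 66 of 89 counts of called genes and 246 of 298 ratios kept their result, and 3 ratios reversed. Lgals1 and Lgals3, Fcer2a-negative over Fcer2a-positive in KO, turned to 0.953 and 0.904 when positive cells needed 2 Fcer2a UMIs, and Lgals1 between genotypes in Fcer2a-negative cells turned to 1.04 with the 10 barcodes kept. In NK cell-like cells the count of called genes, 1, was 0 with the families in the clustering or with thinning to 1500 UMIs, and 2 without each top cell. In Fcer2a-positive cells the count of 2 was 0 with the split by cluster, thinning, heavy-chain cells only, equal cell weights, no top cell or IgM or IgD cells only. It was 1 with 2 Fcer2a UMIs or a fold of 2, and 4 with a minimum of 20 UMIs. In Fcer2a-negative cells the count of 3 was 1 with thinning and 5 with IgM or IgD cells only. For Fcer2a-negative over Fcer2a-positive cells, the KO count of 5 was 2 with 2 Fcer2a UMIs, thinning or a fold of 2, and 3 with IgM or IgD cells only. The control count of 4 was 1 with thinning. The 5 genes above the free-RNA estimate in Fcer2a-negative cells were 2 with no barcode filter or with the 10 barcodes kept, 3 with IgM or IgD cells only and 8 with the median lineage share. The cause of these changes was not tested. Settings that remove UMIs or cells can take a gene below the UMI minimum, so a lower count does not show that a ratio changed. The S100a6 ratio between genotypes in Fcer2a-negative cells ran from 1.41 with heavy-chain cells only to 4.39 with equal cell weights, and in NK cell-like cells from 0.995 to 1.51. Anxa2 in Fcer2a-negative cells was 0.432 with IgM or IgD cells only. A gene at 0 in a class may have had up to 3 UMIs at this depth.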

Other observations

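In the 7 KO and 19 control cells of the Fcrl5 cluster with no heavy-chain constant call, S100a6 had 694 CPM in KO and 137 CPM in control. The unnamed Tnfsf10/Cemip2 cluster, with 50 KO cells and 1 control cell, had 557 CPM of S100a6, 784 CPM of Lgals1 and 574 CPM of Anxa2 in KO, and only Anxa1 and Anxa2 were above its free-RNA estimate. The unnamed Ifit3/Pkib cluster, with 12 KO and 10 control cells and B cell markers, had 5 S100a6 UMIs in KO and 0 in control, and 0 Anxa2 UMIs in both. Lgals4, a galectin of gut epithelium, had 25 UMIs over both libraries and its highest level in plasmacytoid dendritic cell-like cells, at 39.8 CPM in KO and 26.2 CPM in control.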
